A study of Homo sapiens with 6 samples.

Results

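High mobility group (HMG) box genes of T84 cells were compared between cells carrying a hairpin RNA against ACSL4 and cells carrying a control hairpin. Members were the rows of the deposited gene table whose transcription factor family is HMG. Genes of the Y chromosome and 2 other genes of the family were not analysed here, which left 46 of the 58735 rows. They fell into 18 SOX genes, 4 TCF/LEF genes, 4 HMGB genes and 20 other genes. T84 is an established cell line from a human colorectal cancer. The shACSL4 group held 3 libraries of T84 cells whose genotype is labelled an ACSL4 knockdown, and the shControl group held 3 libraries of T84 cells labelled wild type. The series design text speaks of a knockout, and the names used here are those of the sample titles. All 6 samples were grown in DMEM/F12 with serum and antibiotics, and libraries were made from total RNA after removal of ribosomal RNA. The labels say neither how many hairpins were used nor that libraries were grown as separate cultures. The p-values therefore measure the spread between these libraries, which may be technical.

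The HMG box is a small fold that lies in the minor groove of DNA and bends it sharply. SOX and TCF/LEF proteins read a short sequence with a single box. TCF/LEF proteins carry the Wnt signal at DNA by recruiting beta-catenin, and in colon epithelium they sustain the proliferating crypt cells. HMGB proteins bind DNA and nucleosomes with little regard to sequence, and HMGB1 also acts outside the cell as an alarm signal. The family column also takes in chromatin and repair proteins that hold an HMG box but are not classical transcription factors, such as SSRP1, PBRM1, NSD2 and PMS1.

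ACSL4 itself was at 10.3, 9.12 and 11.1 CPM (counts scaled by library size) in shACSL4 replicates 1, 2 and 3, against 75.5, 72.2 and 72.0 CPM in shControl replicates 1, 2 and 3. The log2 fold change of shACSL4 over shControl was -2.85 (SE 0.10, adjusted p = 3.57e-12, edgeR's quasi-likelihood test). Values of a group are given in the order of these replicate numbers throughout. Library totals ran from 14740383 to 17189496 counts in shACSL4 and from 15119283 to 17620630 in shControl. All 10 colon epithelial markers were tested, with summed levels of 7936 to 9314 CPM in shACSL4 and 6654 to 8010 CPM in shControl. Of these, 6 were higher and 1 lower in shACSL4 at an adjusted p under 0.05 in edgeR (70% called, against 47.2% of all genes tested). KRT20 rose most, with a log2 fold change of 0.88, and EPCAM was the 1 that fell (-0.42). The 12 markers of leukocytes, endothelium and fibroblasts summed to 8.21 to 11.1 CPM in shACSL4 and 21.1 to 32.9 CPM in shControl, with 4 of 12 past the filter on low counts and CD3E at 0 in every library. Most of that gap was LYZ, at 4.48 CPM in shACSL4 and 20.8 CPM in shControl on average (-2.22, adjusted p = 2.11e-07, edgeR), and COL1A1 was also lower (-1.49, adjusted p = 0.00927, edgeR). Their part in the results below was not tested. In bulk RNA, fewer cells of a type and less RNA per cell cannot be told apart.

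Of the 46 genes, 30 passed the filter on low counts and were tested. Of these, 9 were higher and 10 lower in shACSL4 at an adjusted p under 0.05, by edgeR's quasi-likelihood test with Benjamini-Hochberg adjustment over all 15694 genes tested. The 19 calls are 63.3% of the tested members, where 47.2% of all genes tested were called, with 24.0% higher and 23.1% lower. The median log2 fold change was -0.12 over the 30 members and 0.01 over all genes tested. With library size alone as scaling, the median of all genes moved to 0.13 and 65.6% of all calls were higher, against 50.9% here. Members then split into 9 higher and 5 lower. Tested against a fold of 1.2 in place of no change, 5 members were higher and 5 lower, without SOX4, SOX13, SOX15 and LEF1 among others. In the authors' deposited table, 16 of the 30 members had an adjusted p under 0.05, and all 16 are among the 19 called here. The groups of libraries did not overlap for 23 of the 30 members (76.7%), where 55.1% of all genes tested had no overlap. Of the 30 members, 6 (20%) lay beyond an absolute log2 fold change of 1, against 12.6% of all genes tested. The summed level of the members was 2654 to 2872 CPM in shACSL4 and 2600 to 2701 CPM in shControl, ranges that overlap.

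**Figure D1:**
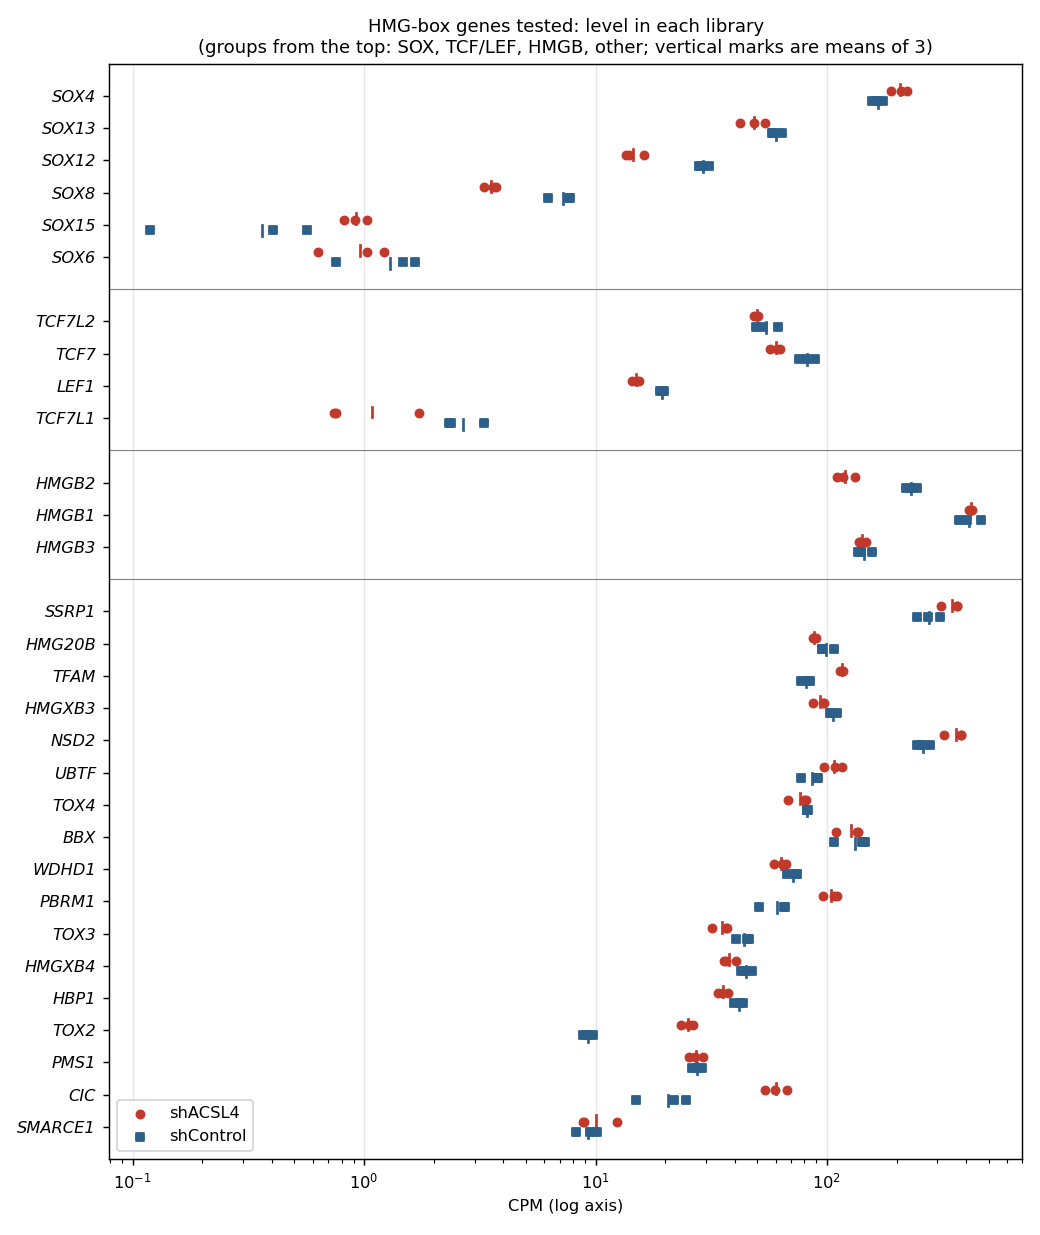
Level of each of the 30 HMG-box genes tested in each library, in CPM on a log axis, with shACSL4 as circles above shControl as squares and vertical marks at the mean of 3 libraries. TOX2, CIC, SOX12 and HMGB2 show wide gaps between the groups, while HMGB1 and HMGB3 overlap.

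Levels between genes can be compared only per length, so the deposited FPKM, which divide counts by gene length and library size, were used for the order of the genes. In shACSL4, SSRP1 stood highest at 54.0 ± 4.94 FPKM, next to HMGB1 at 53.3 ± 0.667, HMGB2 at 42.7 ± 3.95, HMGB3 at 35.2 ± 1.39 and SOX4 at 34.8 ± 2.83 (SD, n = 3). In shControl, HMGB2 stood highest at 83.1 ± 4.68 FPKM, with HMGB1 at 53.2 ± 6.27, SSRP1 at 43.4 ± 5.24, HMGB3 at 36.2 ± 2.88 and SOX4 at 28.2 ± 1.58 (SD, n = 3). SSRP1 and HMGB1 in shACSL4, and HMGB3 and SOX4 in shACSL4, did not differ beyond their spread. The same 5 genes led the order in both groups, with SSRP1 and HMGB2 in exchanged places. The authors' lengths join all exons of a gene, so a gene with long alternative exons gets a low FPKM.

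SOX genes encode transcription factors named for their likeness to the testis-determining gene. Of those analysed here, few were at appreciable levels in T84 cells. Of the 6 tested, SOX4 and SOX15 were higher in shACSL4, and SOX13, SOX12 and SOX8 were lower (83.3% called, against 47.2% of all genes tested). These 6 genes had a median log2 fold change of -0.38, against 0.01 over all genes tested. SOX4 and SOX12 belong to the same subgroup, SoxC, and moved in opposite directions.

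SOX4 (ENSG00000124766, chr6:21592768-21598619 of GRCh38, plus strand), a SoxC factor of progenitor cells, was at 223, 209 and 189 CPM in shACSL4, against 175, 156 and 167 CPM in shControl. Every shACSL4 library lay above every shControl library. The log2 fold change was 0.32 (SE 0.09, adjusted p = 0.00775, edgeR), and the call was lost without shACSL4 replicate 1 (0.26, adjusted p = 0.0585).

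SOX12 (ENSG00000177732, chr20:325595-330224 of GRCh38, plus strand), the other SoxC factor detected, was at 16.2, 14.0 and 13.5 CPM in shACSL4, against 30.9, 28.4 and 27.9 CPM in shControl. The groups lay far apart relative to their spread. SOX12 fell by 1.00 on the log2 scale (SE 0.11, adjusted p = 2.29e-06, edgeR) and remained called in all 17 alternative settings. Within each library the log2 ratio of SOX12 to SOX4 counts was -3.78, -3.90 and -3.80 in shACSL4, against -2.50, -2.46 and -2.58 in shControl. This ratio needs no library scaling and was 0.401 times as high in shACSL4. The promoters of the pair are shown because these related genes moved apart. They run from 250 bases before to 50 bases after the RefSeq start in GRCh38.p14, 5′ to 3′ on the gene's strand, with matches to the motifs named further on in capitals. SOX4 lies at chr6:21593501-21593800 (plus strand) and SOX12 at chr20:325302-325601 (plus strand). The SOX4 window lies inside the gene span given above, past the outermost annotated start.
SOX4: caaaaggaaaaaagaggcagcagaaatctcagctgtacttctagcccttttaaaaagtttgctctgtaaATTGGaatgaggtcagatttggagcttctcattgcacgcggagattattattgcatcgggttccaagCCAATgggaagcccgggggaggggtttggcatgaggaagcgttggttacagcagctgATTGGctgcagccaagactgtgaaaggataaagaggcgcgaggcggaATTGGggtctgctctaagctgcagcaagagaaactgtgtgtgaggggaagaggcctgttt
SOX12: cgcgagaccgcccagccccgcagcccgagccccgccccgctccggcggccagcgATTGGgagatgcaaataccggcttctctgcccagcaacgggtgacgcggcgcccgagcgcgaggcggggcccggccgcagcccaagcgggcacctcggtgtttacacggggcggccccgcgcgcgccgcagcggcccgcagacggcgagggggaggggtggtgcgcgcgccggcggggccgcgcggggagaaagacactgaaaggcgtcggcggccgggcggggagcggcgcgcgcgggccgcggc

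SOX8, a SoxE factor, was at 3.72, 3.59 and 3.29 CPM in shACSL4, against 7.68, 7.72 and 6.25 CPM in shControl. Its groups did not overlap, and its log2 fold change was -1.03 (SE 0.19, adjusted p = 0.000258, edgeR). All 17 alternatives called it.

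SOX13, a SoxD factor that can bind TCF proteins, was at 41.9, 54.3 and 48.5 CPM in shACSL4, against 58.7, 57.9 and 63.7 CPM in shControl. The groups came close to each other at shACSL4 replicate 2. The log2 fold change was -0.32 (SE 0.10, adjusted p = 0.0152, edgeR). The running median of 51 tested genes around it on the chromosome was -0.28. Such a window of 51 counts the gene itself, here and for the other members. Relative to those neighbours SOX13 was at -0.03 (adjusted p = 0.825). Its call was also lost without shACSL4 replicate 1 (adjusted p = 0.111), without shControl replicate 3 (0.0531) and with library size alone (0.132).

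SOX15, a SoxG factor, rested on few reads, with 16, 16 and 13 counts in shACSL4, against 2, 9 and 6 counts in shControl. It passed the filter through the shACSL4 libraries. The log2 fold change was 1.34 (SE 0.51, adjusted p = 0.0381, edgeR). The call was lost without any 1 of 5 libraries (adjusted p of 0.0673 to 0.184, with log2 fold changes of 0.91 to 1.41, the lowest without shControl replicate 1), with the replicate block (0.054), with DESeq2 (0.146) and with no filter (0.0796). SOX6, a SoxD factor, had 19, 18 and 10 counts in shACSL4 and 28, 12 and 22 counts in shControl, and its log2 fold change of -0.44 (SE 0.41, adjusted p = 0.40, edgeR) was not called.

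The other 12 SOX genes did not pass the filter. No read was counted for SOX3, SOX11, SOX14, SOX17 and SOX21 in any library, which at 3 counts allows up to 0.171 to 0.192 CPM per shACSL4 library and 0.178 to 0.202 CPM per shControl library. These limits cover counting error only. SOX30 had 4, 11 and 9 counts in shACSL4, against 0, 1 and 0 counts in shControl. Its summed ratio, scaled for library size, was 23.3 with an exact 95% counting interval of 3.81 to 960.0, and the authors' deposited table gives an adjusted p of 0.0158 for it. The interval pools the libraries of each group and leaves out the spread between them. SOX7, a SoxF factor of endothelium and endoderm, had 2, 8 and 7 counts in shACSL4 and none in shControl. Its summed shACSL4 counts, taken as exact, were 5.51 times a floor of 3 counts over the shControl group, scaled for library size. That figure leaves out the counting error of the shACSL4 counts and the spread between libraries. SOX7 had no adjusted p under 0.05 in the authors' deposited table. Ratios were computed for SOX30 and SOX7 only, which were picked with their counts known, so neither ratio is a test. SOX7 shares 39.4% of its exonic bases with a member named PINX1 that had no read and whose exons come mostly (72.3%) from SOX7, so its count is uncertain. SOX10, SOX1, SOX2, SOX5 and SOX18 had at most 11 counts in any library.

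**Figure D2:**
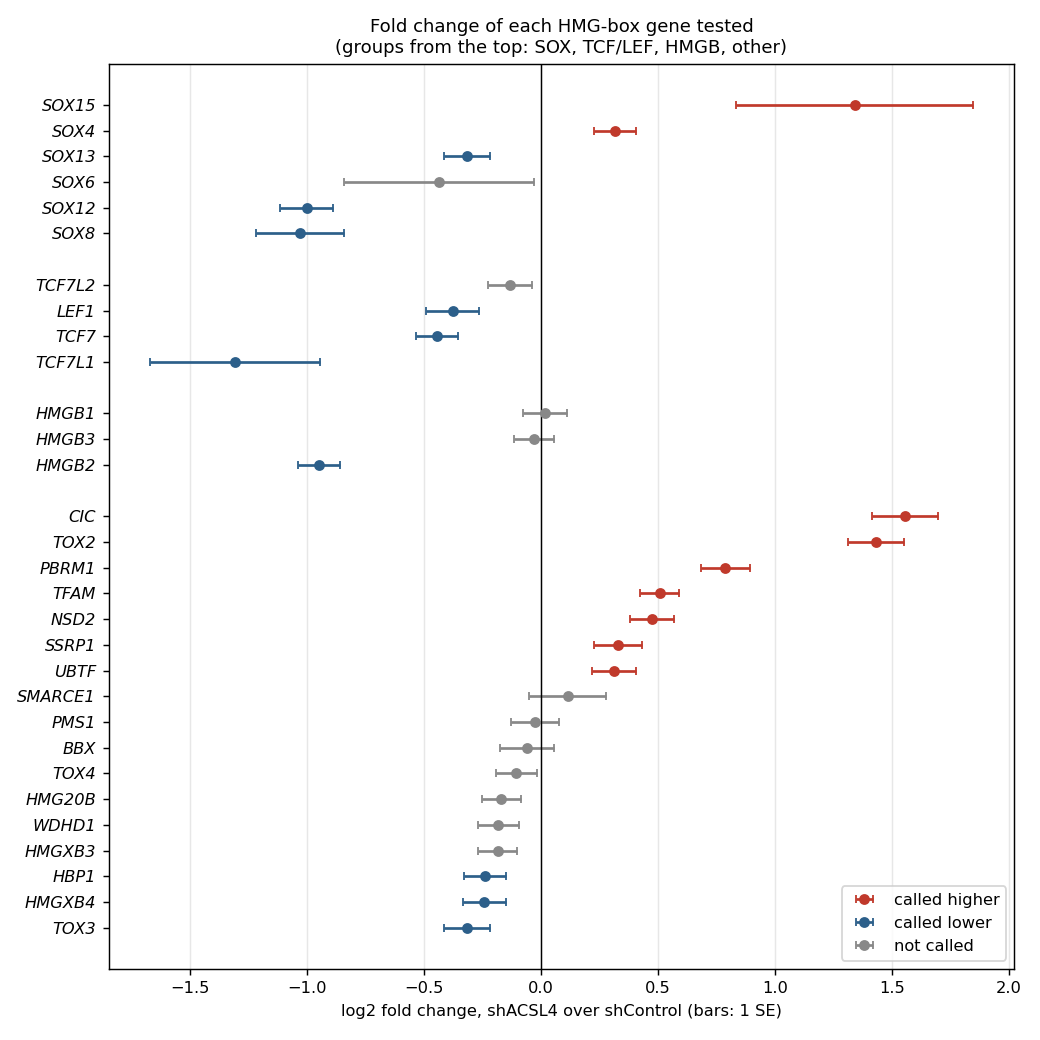
Log2 fold change of shACSL4 over shControl for the 30 genes tested, with bars of 1 SE, grouped from the top as SOX, TCF/LEF, HMGB and other genes. CIC (1.56) and TOX2 (1.43) lie highest, and TCF7L1 (-1.31), SOX8 (-1.03) and SOX12 (-1.0) lie lowest.

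All 4 TCF/LEF genes were tested, and 3 fell (TCF7, LEF1 and TCF7L1), where 23.1% of all tested genes fell. TCF7L2, the TCF of normal intestinal epithelium, was not called. The median log2 fold change of the 4 genes was -0.41. Their summed level was 122 to 130 CPM in shACSL4, against 147 to 165 CPM in shControl. Gene counts do not separate the long isoforms, which bind beta-catenin, from the short ones of TCF7, LEF1 and TCF7L2 that lack that region.

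TCF7 (ENSG00000081059, chr5:134114711-134151865, plus strand) was at 62.9, 60.7 and 57.0 CPM in shACSL4, against 89.0, 75.8 and 80.9 CPM in shControl. The groups did not overlap. Its log2 fold change was -0.44 (SE 0.09, adjusted p = 0.000601, edgeR), and each of 17 alternatives called it. TCF7 shares 2.09% of its exonic bases with SKP1 on the opposite strand, and SKP1 averaged 2127 counts in shACSL4 and 2753 counts in shControl.

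LEF1 (ENSG00000138795, chr4:108047545-108168956, minus strand), a TCF/LEF factor that is low in normal colon and often present in colorectal tumours, was at 15.1, 14.4 and 15.4 CPM in shACSL4, against 19, 19.5 and 19.8 CPM in shControl. The libraries of each group lay close together and apart from the other group. The log2 fold change was -0.38 (SE 0.11, adjusted p = 0.011, edgeR), and the call was lost with library size alone (-0.26, adjusted p = 0.0791).

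TCF7L1 (ENSG00000152284, chr2:85133410-85310388, plus strand), mostly a repressor of Wnt targets, had 27, 13 and 12 counts in shACSL4, against 40, 37 and 49 counts in shControl, for. TCF7L1 fell, with a log2 fold change of -1.31 (SE 0.36, adjusted p = 0.00697, edgeR), with shACSL4 replicate 1 nearest to the shControl libraries. The fold ranged from -1.82 to -1.09 when each library was left out in turn, and every such fit called it.

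TCF7L2 was at 50.4, 50 and 48.6 CPM in shACSL4, against 52.7, 49.2 and 61.3 CPM in shControl. The groups overlapped, with a log2 fold change of -0.13 (SE 0.09, adjusted p = 0.271, edgeR). Within libraries the log2 ratio of TCF7 to TCF7L2 counts was 0.32, 0.28 and 0.23 in shACSL4, against 0.76, 0.62 and 0.40 in shControl. The ratio of LEF1 to TCF7L2 was -1.74, -1.79 and -1.66 in shACSL4, against -1.47, -1.33 and -1.63 in shControl. Neither ratio overlapped between the groups, although shControl replicate 3 came close to the shACSL4 range for LEF1.

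The promoters of the 3 TCF/LEF genes that fell are shown as a set that moved together. They lie at chr5:134115363-134115662 (TCF7, plus strand), chr4:108166252-108166551 (LEF1, minus strand) and chr2:85133142-85133441 (TCF7L1, plus strand) of GRCh38.p14. Each is at the first RefSeq start listed. The TCF7 and LEF1 windows lie inside the gene spans given above, past the outermost annotated start. Promoters at other starts of these genes are not shown and were not searched.
TCF7: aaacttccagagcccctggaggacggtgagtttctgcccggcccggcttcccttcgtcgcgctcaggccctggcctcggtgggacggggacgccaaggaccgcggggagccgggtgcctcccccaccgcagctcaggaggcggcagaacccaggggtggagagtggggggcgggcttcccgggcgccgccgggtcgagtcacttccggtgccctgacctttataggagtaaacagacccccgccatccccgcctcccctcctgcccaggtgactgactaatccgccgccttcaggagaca
LEF1: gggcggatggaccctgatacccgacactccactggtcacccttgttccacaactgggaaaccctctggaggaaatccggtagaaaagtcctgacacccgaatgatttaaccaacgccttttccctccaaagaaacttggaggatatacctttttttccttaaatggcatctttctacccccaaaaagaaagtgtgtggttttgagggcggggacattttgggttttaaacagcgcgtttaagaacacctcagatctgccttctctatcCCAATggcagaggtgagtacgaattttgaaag
TCF7L1: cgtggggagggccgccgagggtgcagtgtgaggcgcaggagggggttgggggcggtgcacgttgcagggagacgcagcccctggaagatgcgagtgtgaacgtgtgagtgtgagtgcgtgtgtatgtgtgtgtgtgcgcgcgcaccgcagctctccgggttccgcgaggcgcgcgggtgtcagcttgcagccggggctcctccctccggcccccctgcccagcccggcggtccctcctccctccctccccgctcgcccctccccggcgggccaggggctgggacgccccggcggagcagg

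RefSeq promoters were found for 33 of the 46 members, and only the first start listed was used for each. Each was searched on both strands for the TCF/LEF motif as CTTTGAA or as CTTTGAT. The other motifs were a short SOX form, AACAAT, a longer SOX form, AACAAAG, the CIC octamer TGAATGAA and the CCAAT box, which is no HMG-box motif. No member promoter held CTTTGAA (found in 4.53% of 27305 promoters of the same length). The same was true of CTTTGAT (in 2.64% of all promoters) and of the longer SOX motif (in 5.28%). AACAAT occurred in HMGB3, SOX5 and TCF7L2, and in 10.3% of all promoters. TGAATGAA occurred in HMGB3, and in 1.67% of all promoters. CCAAT shares its last letters with the short SOX form, but no stretch can match both. It occurred in 20 of the 33 members (60.6%), and in 35.7% of all promoters. Of the 15 tested members with CCAAT, 5 rose and 3 fell, a share near the 47.2% of all tested genes that were called. In the promoters printed, CCAAT occurs 4 times in SOX4 and in CIC, once in SOX12 and LEF1, and not in TCF7, TCF7L1 or TOX2. A match is a string of letters in this window and not a site.

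The HMGB genes differed from each other. HMGB2 fell in shACSL4, while HMGB1 and HMGB3 were not called and HMGB4 had no read. HMGB2 (ENSG00000164104, chr4:173331695-173335125, minus strand), a chromatin protein abundant in dividing cells, was at 111, 117 and 133 CPM in shACSL4, against 221, 245 and 230 CPM in shControl. Every shACSL4 library lay well below the lowest shControl library. HMGB2 fell by 0.95 on the log2 scale (SE 0.09, adjusted p = 3.43e-07, edgeR), which left 0.518 of its level. The running median of its chromosomal neighbours was -0.34, and relative to them HMGB2 was at -0.61 (adjusted p = 4.32e-05).

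HMGB1, the most abundant HMGB protein of most cells, was at 424, 411 and 420 CPM in shACSL4, against 404, 463 and 372 CPM in shControl. The shACSL4 values lay inside the shControl range, with a log2 fold change of 0.02 (SE 0.09, adjusted p = 0.887, edgeR). HMGB1 has 48 processed copies in the table whose counts came to 24.0% of its own in shACSL4 and 25.4% in shControl, so the split of its reads is uncertain. HMGB3 was at 139, 138 and 148 CPM in shACSL4, against 136, 157 and 140 CPM in shControl, with a log2 fold change of -0.03 (SE 0.09, adjusted p = 0.799, edgeR). Its 29 copies held 1.33% of its counts in shACSL4 and 1.03% in shControl.

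Within libraries the log2 ratio of HMGB2 to HMGB1 counts was -1.93, -1.81 and -1.66 in shACSL4, against -0.87, -0.92 and -0.69 in shControl. The ratio of HMGB2 to HMGB3 was -0.32, -0.23 and -0.16 in shACSL4, against 0.69, 0.64 and 0.71 in shControl, so that HMGB2 was the less counted of the pair in each shACSL4 library and the more counted in each shControl library. For 6 such ratios, chosen with the fold changes known, a two-sided exact permutation test of 3 libraries against 3 can give no p below 0.10. The exact p was 0.10 for each of the 6, and 0.10 after adjustment over them.

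**Figure D3:**
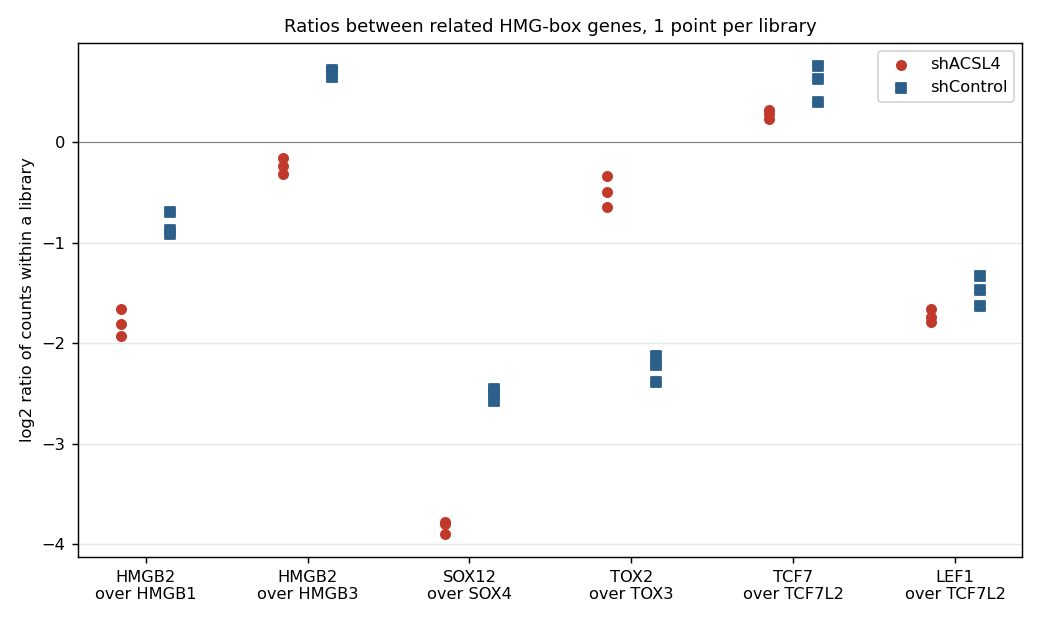
Log2 ratio of counts between related HMG-box genes, with 1 point per library and shACSL4 left of shControl in each pair. The HMGB2 over HMGB3 ratio lies between -0.32 and -0.16 in shACSL4 and between 0.64 and 0.71 in shControl.

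Of the 20 other members, 17 were tested, 7 rose and 3 fell (58.8% called, against 47.2% of all genes tested). The rises were in CIC, TOX2, PBRM1, TFAM, NSD2, SSRP1 and UBTF, and the falls in TOX3, HMGXB4 and HBP1. The median log2 fold change over the 17 was -0.02. The 3 falls became 1 with DESeq2, with no filter, with limma on FPKM and without shACSL4 replicate 1 or shControl replicate 3. They became 0 with library size alone, against a fold of 1.2, and without shACSL4 replicate 3 or shControl replicate 1.

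CIC (ENSG00000079432, chr19:42268537-42295797, plus strand), a repressor that growth factor signalling through ERK releases from its targets, was at 59.8, 67.5 and 53.8 CPM in shACSL4, against 24.6, 15 and 21.9 CPM in shControl. The lowest shACSL4 library was well above the highest shControl library. Its log2 fold change of 1.56 (SE 0.14, adjusted p = 1.74e-07, edgeR) was called in all 17 alternatives. The running median of its neighbours on chromosome 19 was 0.30, and relative to them CIC was at 1.26 (adjusted p = 2.1e-06). The table also holds 24 pseudogene copies of CIC, whose summed level was 32.1, 27.5 and 28.6 CPM in shACSL4, against 10.1, 9.73 and 11.2 CPM in shControl. These copies came to 48.3% of the CIC counts in shACSL4 and 50.1% in shControl, so the division of reads between CIC and its copies is uncertain, while both were higher in shACSL4.

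TOX2 (ENSG00000124191, chr20:43914864-44069616, plus strand), of the TOX family of HMG-box proteins known mainly from lymphocytes, was at 23.3, 26.3 and 25.4 CPM in shACSL4, against 8.81, 9.23 and 9.75 CPM in shControl. Its groups were narrow and far apart, with a log2 fold change of 1.43 (SE 0.12, adjusted p = 6.9e-08, edgeR), and all 17 alternatives called it. TOX3, another TOX protein, moved the other way, at 36.6, 37.0 and 32.0 CPM in shACSL4, against 45.9, 40.3 and 45.3 CPM in shControl. Its log2 fold change of -0.32 (SE 0.10, adjusted p = 0.0129, edgeR) lost its call without shACSL4 replicate 3 (0.0564), without shControl replicate 1 (0.0582) and with library size alone (0.105). The log2 ratio of TOX2 to TOX3 counts was -0.65, -0.49 and -0.34 in shACSL4, against -2.38, -2.13 and -2.21 in shControl. TOX4, a subunit of a phosphatase complex, was not called (-0.10, SE 0.09, adjusted p = 0.353, edgeR), and TOX was below the filter with at most 4 counts in a library.

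The promoters of CIC and TOX2 are shown as both genes rose in every alternative, each at the first RefSeq start listed, at chr19:42268280-42268579 and chr20:43915880-43916179 of GRCh38.p14, both on the plus strand. The TOX2 window lies inside the gene span given above, past the outermost annotated start.
CIC: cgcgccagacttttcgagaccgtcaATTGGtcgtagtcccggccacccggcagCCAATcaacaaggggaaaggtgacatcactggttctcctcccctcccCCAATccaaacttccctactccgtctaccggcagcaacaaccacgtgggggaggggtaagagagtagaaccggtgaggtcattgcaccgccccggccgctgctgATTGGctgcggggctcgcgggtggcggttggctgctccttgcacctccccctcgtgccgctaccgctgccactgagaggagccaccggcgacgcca
TOX2: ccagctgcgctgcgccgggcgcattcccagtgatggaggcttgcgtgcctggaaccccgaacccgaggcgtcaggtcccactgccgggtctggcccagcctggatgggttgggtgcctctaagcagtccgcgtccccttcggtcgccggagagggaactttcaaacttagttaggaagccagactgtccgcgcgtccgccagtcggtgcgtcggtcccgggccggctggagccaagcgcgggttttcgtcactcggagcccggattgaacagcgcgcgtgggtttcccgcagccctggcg

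PBRM1 (ENSG00000163939, chr3:52545352-52685917, minus strand), a subunit of the PBAF chromatin remodelling complex, was at 107, 111 and 96.3 CPM in shACSL4, against 66.0, 50.7 and 65.1 CPM in shControl. The groups did not overlap, and the log2 fold change was 0.79 (SE 0.10, adjusted p = 1.08e-05, edgeR), called in all 17 alternatives. SMARCE1, an HMG-box subunit of the same family of complexes, was not called (0.11, SE 0.16, adjusted p = 0.595). It shares 19.8% of its exonic bases with a coding gene on the same strand that had no read, so its low level of 8.79 to 12.4 CPM in shACSL4 and 8.22 to 10.1 CPM in shControl is uncertain.

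TFAM, which packages and transcribes mitochondrial DNA, was at 118, 113 and 116 CPM in shACSL4, against 84.6, 82.4 and 77.3 CPM in shControl. TFAM had a log2 fold change of 0.51 (SE 0.08, adjusted p = 8.35e-05, edgeR), and its neighbours' running median was 0.43. NSD2, a histone H3 lysine methyltransferase, was at 381, 380 and 321 CPM in shACSL4, against 278, 245 and 256 CPM in shControl. NSD2 had one of 0.48 (SE 0.09, adjusted p = 0.00055, edgeR), and its neighbours' running median was 0.51. Neither gene overlapped between groups, and each moved by about as much as the genes around it. Relative to neighbours TFAM was at 0.08 (adjusted p = 0.462) and NSD2 at -0.03 (adjusted p = 0.839).

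**Figure D4:**
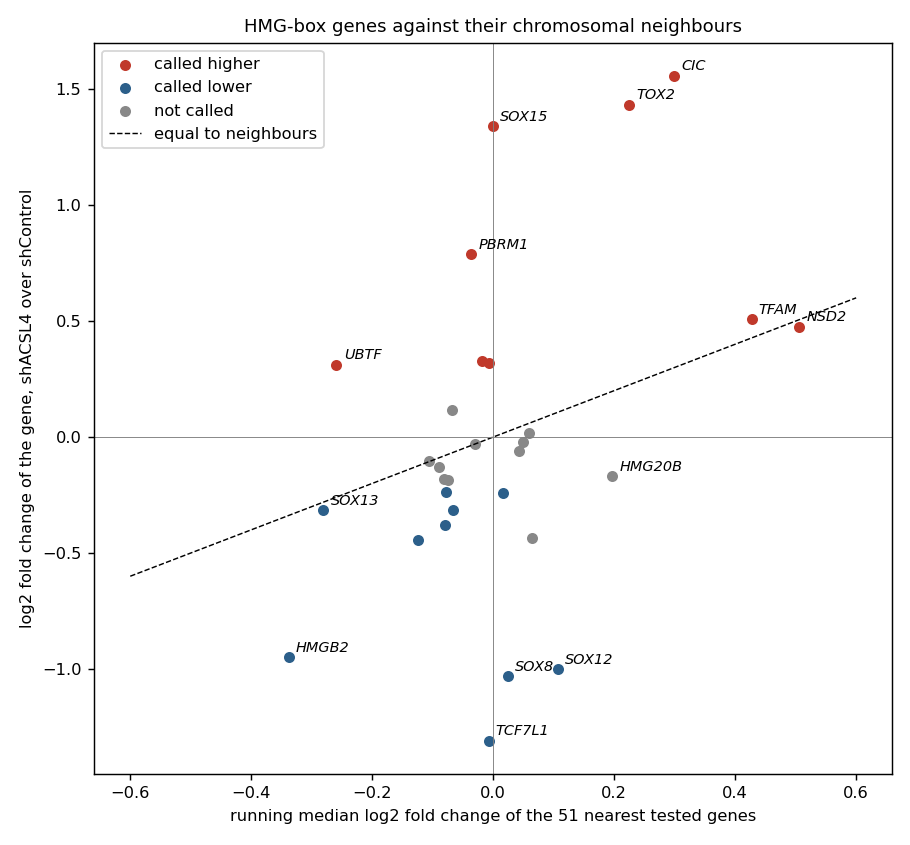
Log2 fold change of each HMG-box gene tested against the running median of 51 tested genes around it on its chromosome, the gene itself included. A dashed line marks where a gene equals its neighbours. NSD2, TFAM and SOX13 lie on or near the line, while CIC, TOX2, PBRM1, SOX12, SOX8 and TCF7L1 lie far from it.

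SSRP1, a subunit of the FACT histone chaperone, was at 365, 365 and 310 CPM in shACSL4, against 273, 309 and 246 CPM in shControl. The lowest shACSL4 value and the highest shControl value nearly met. The log2 fold change was 0.33 (SE 0.10, adjusted p = 0.0128, edgeR), and the call was lost without shACSL4 replicate 1 or 2 (adjusted p = 0.0627 and 0.0634) and without shControl replicate 1 or 3 (0.0507 and 0.0808). UBTF, which opens ribosomal DNA for RNA polymerase I, was at 108, 116 and 97.6 CPM in shACSL4, against 90.6, 91.5 and 77.5 CPM in shControl. Its groups also lay close, with a log2 fold change of 0.31 (SE 0.09, adjusted p = 0.0121, edgeR) that lost its call without shACSL4 replicate 2 (0.0786) or shControl replicate 3 (0.0811). The neighbours of UBTF had a running median of -0.26, opposite in sign to UBTF.

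HMG20B, which joins the LSD1-CoREST repressor complex, was not called (-0.17, SE 0.08, adjusted p = 0.11, edgeR), although its groups did not overlap, at 87.9, 87.2 and 89.5 CPM in shACSL4 and 95.2, 107 and 95 CPM in shControl. HMG20B shares 9.57% of its exonic bases with MFSD12 on the opposite strand, which averaged 1122 counts in shACSL4 and 797 counts in shControl. Its neighbours had a running median of 0.20, and relative to them it was at -0.37 (adjusted p = 0.00207).

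HMGXB4 was at 36.8, 40.5 and 35.9 CPM in shACSL4, against 47.2, 42.6 and 44.2 CPM in shControl. HBP1, a repressor of cell cycle and Wnt target genes, was at 37.3, 35.2 and 34.0 CPM in shACSL4, against 39.8, 42.2 and 43.6 CPM in shControl. Both had log2 fold changes of -0.24 (SE 0.09) and adjusted p near the threshold in edgeR, 0.0389 and 0.0393. Few alternatives kept these calls, 7 of 17 for HMGXB4 and 4 of 17 for HBP1. HMGXB4 lost its call without shACSL4 replicate 1 or 3 (0.123 and 0.108) and without shControl replicate 1 or 3 (0.153 and 0.0569), and HBP1 lost it without any single library (0.0504 to 0.109). HBP1 shares 15.4% of its exonic bases with COG5 on the opposite strand, which averaged 2025 counts in shACSL4 and 1642 counts in shControl.

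The remaining members tested were not called by edgeR. HMGXB3 had a log2 fold change of -0.18 (adjusted p = 0.081), the replication factor WDHD1 -0.18 (0.094), BBX -0.06 (0.692) and the mismatch repair protein PMS1 -0.02 (0.872). For HMGXB3, TOX4 and WDHD1 the groups did not overlap even so. BHMG1 had at most 1 count in a library.

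Partners and targets of the HMG-box proteins were taken from lists written with earlier results of these data known, and each is given by its counts and median beside the 47.2% called and the median of 0.01 over all genes tested. Among TCF/LEF cofactors and the beta-catenin destruction complex, 8 of 23 rose and 7 fell (65.2% called, median 0.08). APC, the scaffold of the destruction complex, was at 64.3 ± 6.39 CPM in shACSL4 and 25.7 ± 3.01 CPM in shControl (SD, n = 3), a log2 fold change of 1.32 (SE 0.11). The acetyltransferase CREBBP was at 0.80 (SE 0.12), and the Groucho corepressors TLE2 and TLE1 were at -0.80 (SE 0.29) and -0.71 (SE 0.09). CTNNB1, which encodes beta-catenin, was among the falls (-0.43, SE 0.09), at 389 ± 30.6 CPM in shACSL4 and 524 ± 36.8 CPM in shControl (SD, n = 3). The 7 falls became 3 with library size alone or without shACSL4 replicate 2 and 4 without shControl replicate 1, and the 8 rises became 5 relative to neighbouring genes.

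Among genes used as TCF/LEF targets in intestinal epithelium, 3 of 19 rose and 5 fell (42.1% called, median -0.14), with LEF1 and TCF7 themselves among the falls. The Wnt antagonist DKK1 was at 4.11 (SE 0.24), the receptor EPHB3 at 1.69 (SE 0.12), the stem cell factor ASCL2 at 0.92 (SE 0.10) and the phosphatase PTPRO at -2.12 (SE 0.13). ASCL2 was at 61.1 ± 3.96 CPM in shACSL4 and 32.2 ± 3.07 CPM in shControl, and PTPRO at 33.6 ± 6.73 CPM in shACSL4 and 146 ± 16.1 CPM in shControl (SD, n = 3). AXIN2, the general feedback target of the pathway, was not called, at 82.0 ± 4.07 CPM in shACSL4 and 72.9 ± 1.70 CPM in shControl (0.17, SE 0.08, adjusted p = 0.102, edgeR). The 3 rises became 6 once the neighbours were subtracted and 5 when only library size was used for scaling.

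Of the genes repressed by CIC, listed together with its partners ATXN1 and ATXN1L, 4 of 13 rose and 6 fell (76.9% called, median -0.24). The partner ATXN1 was among the falls (-0.46, SE 0.10), and ATXN1L was not called. The phosphatase DUSP4 rose, at 11.2 ± 1.5 CPM in shACSL4 and 2.94 ± 0.833 CPM in shControl (1.92, SE 0.21). PHLDA1 fell, at 623 ± 16.3 CPM in shACSL4 and 1526 ± 128 CPM in shControl (-1.29, SE 0.10; SD, n = 3). DUSP5 was at -0.75 (SE 0.10) and SHC3 at -0.74 (SE 0.16). The list's summed level was 1638 to 1743 CPM in shACSL4, against 2594 to 2898 CPM in shControl, most of it PHLDA1 in shControl. Of the ETV genes listed, ETV4 fell (-0.61, SE 0.08), ETV5 was not called (-0.21, SE 0.10) and ETV1 was below the filter.

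Of the LSD1-CoREST complex, 2 of 10 rose and 5 fell (70.0% called, median -0.18). The scaffolds RCOR2 (1.14, SE 0.38) and RCOR3 (0.66, SE 0.10) rose, and ZMYM3 (-0.46, SE 0.09) and the demethylase KDM1A (-0.34, SE 0.08) fell. RCOR2 rested on few reads, with 32, 38 and 36 counts in shACSL4, against 21, 20 and 6 counts in shControl. The 5 falls became 2 with library size alone or without shACSL4 replicate 2, and 3 without shACSL4 replicate 1 or 3 or shControl replicate 1. The 2 rises became 1 with DESeq2, when genes under a mean of 50 counts were dropped, and without shACSL4 replicate 2 or 3 or shControl replicate 3.

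Receptors of extracellular HMGB1, with their adaptors and the partner ligand CXCL12, were sparse, with 5 of 12 genes tested (20% called, median -0.11). The tested genes include the adaptors MYD88 and TIRAP. TLR4 was the only call among them, at 2.31 ± 0.163 CPM in shACSL4 and 12.5 ± 2.14 CPM in shControl (SD, n = 3), with a log2 fold change of -2.43 (SE 0.19, adjusted p = 3.35e-08, edgeR). AGER, the receptor RAGE, was not called (-0.11, SE 0.21), and CXCR4 and THBD had no read. The 1 fall became 2 without shACSL4 replicate 1 or 3 and with no filter, and 1 gene rose without shControl replicate 2 and 2 with library size alone.

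Among other architectural chromatin proteins, 1 of 11 rose and 7 fell (72.7% called, median -0.31). The linker histone gene H1F0 rose, at 704 ± 60.4 CPM in shACSL4 and 341 ± 8.13 CPM in shControl (1.05, SE 0.09). HIST1H1C (-1.0, SE 0.22), HMGA1 (-0.66, SE 0.10) and HMGN3 (-0.50, SE 0.14) fell, with HMGA1 at 434 ± 38.5 CPM in shACSL4 and 685 ± 44.0 CPM in shControl (SD, n = 3). The 7 falls became 4 with library size alone or without shACSL4 replicate 2. The 1 rise became 2 without shACSL4 replicate 1 or with library size alone, and 3 without shControl replicate 2.

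**Figure D5:**
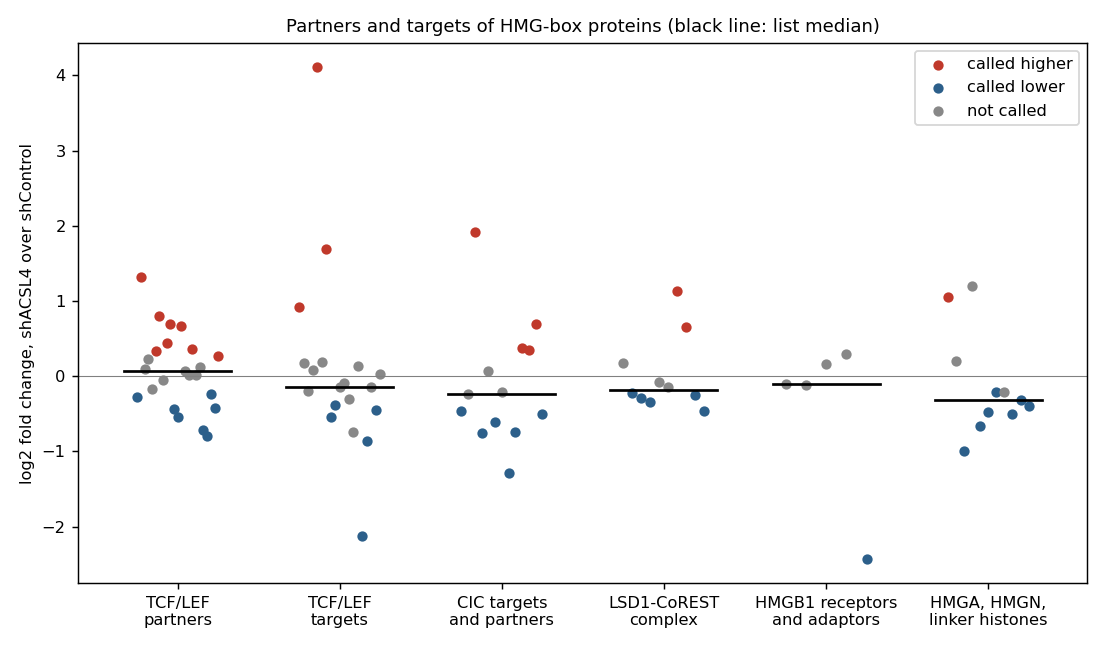
Log2 fold change of shACSL4 over shControl for each tested gene of 6 lists of partners, targets and related chromatin proteins, with a black line at each list median. The medians lie between -0.31 and 0.08, with single genes such as DKK1 (4.11) and TLR4 (-2.43) far from them.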

How the data were processed

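Replicates were not pooled: 3 of shACSL4 and 3 of shControl T84 cells, each with its own column. The deposited table holds raw counts of every library, per the file headers. It also holds the authors' FPKM, group mean signal, log2 fold changes, p-values and adjusted p-values. The submitters' processing notes name CASAVA, HISAT2 and GRCh38 (hg38) and give no versions. How reads were counted, and whether strand was used, was not stated, so reads of overlapping or antisense genes could not be separated. The FPKM library sizes equal median-of-ratios size factors times a constant, as recomputed here. All 58735 gene identifiers and positions matched GENCODE release 29. Columns named NC were matched to shControl by replicate number.

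Genes passing filterByExpr were scaled by TMM and tested in edgeR 4.0.16 (limma 3.58.1, DESeq2 1.42.0 and R 4.3.3 were also used) by the quasi-likelihood F test with group as the only term. Benjamini-Hochberg adjustment ran over 15694 genes, with calls under 0.05. CPM divides by the scaled library sizes, and 3 counts are 0.171 to 0.202 CPM. Members and lists were chosen with earlier results of these data known. 2 genes of the family, beside those of the Y chromosome, are not reported here. Every tested member is named, and of each list the 4 largest called changes among genes averaging 20 counts or more. The markers, AXIN2, AGER, MYD88, TIRAP, CXCL12, ETV1, CXCR4, THBD and genes that overlap members were named after their values were seen. So were CTNNB1, ATXN1, ATXN1L, ETV4 and ETV5. Promoters are those of RefSeq on GRCh38.p14. The 17 alternatives covered scaling, filters, tests, FPKM, a replicate block, left-out libraries and neighbouring genes. The edgeR steps were tested on simulated data, with 50 of 15694 genes changed at each fold, far fewer than were called here. Of changed genes, 14% were called at a fold of 1.25, 46% at 1.5, 78% at 2 and 96% at 4. Unchanged genes made up 4.88% of the calls. A gene not called is therefore not shown to be unchanged.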

Additional observations from a re-analysis of the deposited data

How the results depend on the processing

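The 30 members were refitted under 17 alternatives, and in 437 refits of single genes the direction and the side of the threshold stayed as reported, in 54 the call was lost and in 1 a call was gained. The sign turned in 15 refits, of which 14 concern 6 genes called neither here nor in those refits. With library size alone HMGB3 was at 0.0911, BBX at 0.0519, TOX4 at 0.0118 and PMS1 at 0.0965, and relative to neighbouring genes HMGB1 was at -0.0403 and TOX4 at 0.0019. With each library left out in turn, HMGB1 ran from -0.0638 to 0.1061, HMGB3 from -0.0748 to 0.031, BBX from -0.1934 to 0.0358, PMS1 from -0.0758 to 0.0261 and SMARCE1 from -0.0633 to 0.2025. Of the 19 calls, 8 held in every alternative that could be fitted (SOX12, SOX8, TCF7, TCF7L1, HMGB2, PBRM1, TOX2 and CIC), and 11 held when each library was left out in turn. Of the calls, NSD2 reversed relative to neighbouring genes (-0.0301), which subtracts the neighbours' median as a fixed value and leaves out its error. Members called lower numbered 5 with library size alone. Against a fold of 1.2, a stricter question than a change in either direction, calls over all genes were 2441 higher and 2209 lower, and members were 5 higher and 5 lower, with 0 SOX genes higher. SOX genes called higher numbered 1 when genes under a mean of 50 counts were dropped and 1 with the replicate block. Leaving out each library in turn gave 1 to 2 SOX genes higher and 2 to 3 lower, 6 to 9 members higher and 7 to 9 lower, and 3121 to 3661 genes higher and 3001 to 3590 lower. Without shACSL4 replicate 1 or shControl replicate 3, the filter passed 7 SOX genes in place of 6. Without shACSL4 replicate 1 neither SOX4 nor SOX15 was called, and the 1 SOX rise was a gene not tested in the main fit. The deviations of same-numbered libraries from their group means had correlations of 0.0623, -0.0013 and 0.0075, so no clear pairing by number was seen. A weak pairing could be missed this way. With the replicate block 3769 genes were higher and 3645 lower, and among members it ended the call of SOX15. On the log2(FPKM + 1) scale, whose pseudocount shrinks low genes, TCF7L1 was at -0.37, SOX8 at -0.55 and SOX15 at 0.37. Genes under about 20 counts, such as SOX15 and SOX30, are limited by counting error.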
